A study of Astragalus chrysochlorus with 2 samples.

Results

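Astragalus chrysochlorus is a legume that accumulates selenium, and its callus is an undifferentiated tissue culture. Reported here are 3 unigenes (assembled transcripts) of that callus whose protein matches are receptor-like kinases, namely Unigene6359_All (receptor kinase, matched to Medicago truncatula), CL4877.Contig1_All (receptor-like protein kinase, Medicago truncatula) and Unigene9986_All (a cysteine-rich receptor-like protein kinase, Glycine max). The shared ending of the identifiers is left out from here on. They were chosen by their identifiers from the 82566 unigenes of the deposited table, with their ratios between the libraries already known, so these ratios are a description and were not tested. RNA was sequenced from 1 Control library and 1 Se-treated library. Both calli grew on MS medium with 0.5 mg/L of the auxin 2,4-D, and the Se-treated callus, 21 days old at the transfer, spent 3 weeks with sodium selenate added at 5 mg/L. No such age is given for the Control callus, so whether the ages were matched is not known. Each treatment was triplicated over several culture dishes, and no source used here says whether the triplicates were pooled into a library. With 1 library per condition there is no measure of the spread between cultures, and every interval below covers counting error only.

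Receptor-like kinases are a large family of cell surface receptors in plants. Such a protein has an outer domain that binds a signal, a segment that crosses the membrane, and a serine/threonine kinase domain inside the cell that passes the signal on, often to cytoplasmic kinases and MAP kinases. Outer domains differ between subfamilies. Leucine-rich repeats bind peptides, hormones and microbial patterns, lectin domains are related to proteins that bind sugars, LysM domains bind chitin and related molecules, and wall-associated kinases bind pectin. Cysteine-rich receptor-like kinases carry a domain with a conserved pattern of cysteines, and in Arabidopsis many of them respond to pathogens, salicylic acid and oxidative stress. In a callus library fewer cells that express a gene cannot be told apart from less RNA per cell. The callus label could not be checked, as no marker of callus was fixed and few unigenes carry a name here.

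The Control library averaged 203 mapped fragments per unigene (median 22) and the Se-treated library 202 (median 21), and their totals differed by 0.168%. Levels are given as FPKM, in which fragments are divided by the length of the unigene and the total of the library, and which was computed from the fragment counts. A log2 ratio is that of Se-treated over Control FPKM. A unigene was called lower where its log2 ratio was at most -2 and the false discovery rate (FDR) of an Audic-Claverie test on the 2 counts, adjusted by Benjamini-Hochberg over all unigenes, was at most 0.001. It is a test between libraries and says nothing of the spread within a condition. Over all unigenes the median log2 ratio was -0.09. Among all unigenes 912 (1.10%) were called lower, 3838 (4.65%) with -1 as the threshold, and 1311 (1.59%) were called higher at a log2 ratio of at least 2. Of the receptor-like kinases described here 3 of 3 were called lower, a count that their choice fixed.

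For Unigene6359 the Control library held 1799 fragments and the Se-treated library 335. Its level was 97.2 FPKM (95% Poisson interval 92.8 to 102) in the Control and 18.1 FPKM (16.2 to 20.2) in the Se-treated callus, and these intervals did not overlap. That gap follows from its choice as a lowered unigene. The level was thus 5.36-fold lower in Se-treated callus (4.77 to 6.04), a log2 ratio of -2.42 (-2.60 to -2.25). The unigene is 1106 nt long and carried 163 Control and 30.3 Se-treated fragments per 100 nt. By FPKM it was at rank 1509 of all unigenes in the Control, with 1.83% of the unigenes above it, and at rank 8030 in the Se-treated library, with 9.72% above it. Its loss of 79.1 FPKM was at rank 334 among all unigenes. Among the 1655 unigenes with at least as many Control fragments, 8 were called lower (0.483%), Unigene6359 included. Those with a ratio at or below its own were 4 including itself, and among the others were an extensin-like cell wall protein and a flavonoid 3'-hydroxylase.

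For CL4877.Contig1 the counts were 382 fragments with Control and 57 with Se-treated callus. The level was 16.9 FPKM (15.3 to 18.7) in the Control and 2.53 FPKM (1.92 to 3.28) in the Se-treated callus. It was 6.69-fold lower in Se-treated callus, a log2 ratio of -2.74 (-3.17 to -2.34). The contig is 1349 nt long, the longest of the 3, and is the single contig of its cluster in the deposited table, so there was no related contig to set beside it. Clusters with 1 contig are not rare, as 947 of 10227 clusters in the table have a single one. Its rank by FPKM fell from 8542 in the Control to 39221 in the Se-treated library, where 47.5% of the unigenes were above it. Among the 7538 unigenes with at least as many Control fragments, 45 were called lower (0.597%), and the ratio of 13, itself included, was at or below that of CL4877.Contig1.

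Unigene9986, the cysteine-rich member, was counted 119 times in Control callus and 23 times after selenate. Its level was 9.46 FPKM (7.84 to 11.3) in the Control and 1.83 FPKM (1.16 to 2.75) in the Se-treated callus. The level was 5.17-fold lower in Se-treated callus (3.29 to 8.46), a log2 ratio of -2.37 (-3.08 to -1.72). This interval is the widest of the 3, and its upper end lies above the threshold of -2. The unigene is 752 nt long, which leaves room for at most 250 codons, against 368 in Unigene6359 and 449 in CL4877.Contig1. Its rank by FPKM fell from 13709 to 48093, so that 58.2% of the unigenes were above it in the Se-treated library. With 1 FPKM added to both libraries its log2 ratio was -1.89 and it was no longer called, whereas Unigene6359 (-2.36) and CL4877.Contig1 (-2.34) were.

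**Figure D1:**
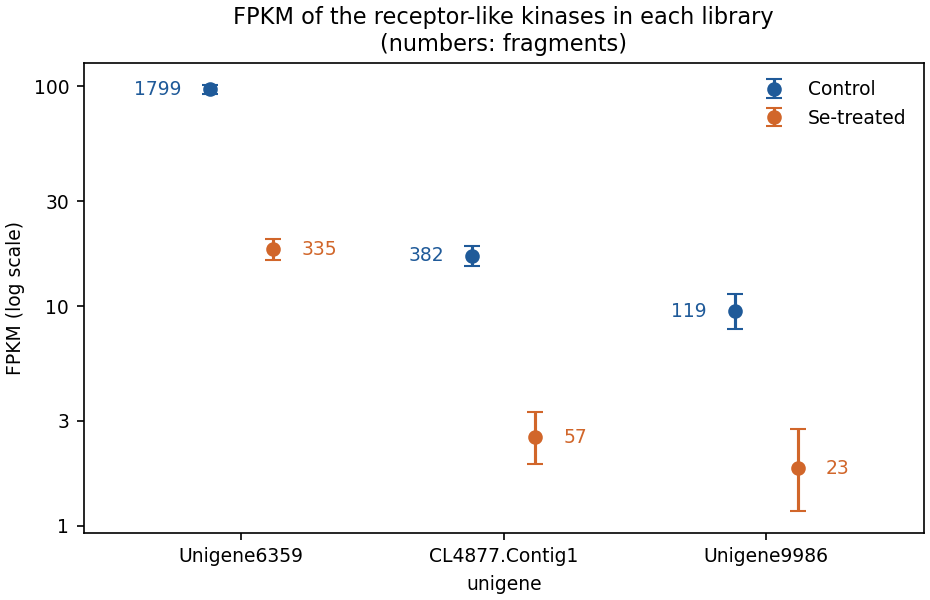
FPKM (log scale) of Unigene6359, CL4877.Contig1 and Unigene9986 in the Control (blue) and Se-treated (orange) library, with exact 95% Poisson intervals that cover counting error only; the printed numbers are fragments. Each unigene lies lower in the Se-treated library, from 97.2 to 18.1, from 16.9 to 2.53 and from 9.46 to 1.83 FPKM, with intervals that do not overlap. The 3 were chosen as lower in these libraries, so the gap between the intervals follows from the choice.

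The ratios of the 3 receptor-like kinases lay close together, from -2.74 to -2.37, and their intervals overlapped, while their levels differed widely. The median log2 ratio of all 912 unigenes called lower was -2.61, so ratios not far below -2 are not particular to these 3. The FPKM of Unigene6359 was 5.74 times that of CL4877.Contig1 and 10.3 times that of Unigene9986 in the Control, and 7.17 and 9.90 times in the Se-treated library. CL4877.Contig1 stood 1.79 times above Unigene9986 in the Control, where their intervals were apart, and 1.38 times above it in the Se-treated library, where the intervals overlapped. The order of the levels was therefore equal in both libraries, but the lower pair was not separated beyond counting error in Se-treated callus. Together the 3 took 2300.0 Control fragments and 415 Se-treated ones, most of them from Unigene6359.

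Names were taken from the annotation that came with the study, and each of the 972 unigenes with a name passed the thresholds used here in these libraries. Receptor-like kinases that differed less carry no name here, so a count over named receptor-like kinases is not independent evidence of their direction. By name 44 unigenes were receptor-like kinases, of which 33 were called lower and 11 higher, with a median log2 ratio of -2.29. Over all 972 named unigenes, the base for this and the lists below, 309 were lower (31.8%) and 663 higher, with a median of 2.18. The median length of the 44 was 570 nt, and some share a matched name, such as Unigene31453 and Unigene33239. Whether separate unigenes are parts of the same gene was not tested, so these counts are of unigenes and not of genes. In the Control library Unigene6359 had the highest level of the 44, CL4877.Contig1 the second and Unigene9986 the third. In the Se-treated library Unigene6359 was still the highest, but CL4877.Contig1 was at rank 11 and Unigene9986 at rank 15. Each unigene ranked between Unigene6359 and CL4877.Contig1 there was called higher, and has its name only because it rose. Among the lower ones CL4877.Contig1 was still next after Unigene6359. Of the lower ones Unigene18881 (2.12 FPKM) and CL2336.Contig2 (1.89 FPKM) also lay above Unigene9986 (1.83 FPKM). Of the summed FPKM of the 44, Unigene6359 made up 35.2% with Control and 20.6% with Se-treated callus, CL4877.Contig1 6.12% and 2.87%, and Unigene9986 3.42% and 2.08%. The sum fell from 277 FPKM in the Control to 88.1 FPKM in Se-treated callus, and without the 3 unigenes from 153 to 65.6 FPKM. Within it the 33 lower ones went from 270 to 45.8 FPKM and the 11 higher ones from 6.73 to 42.3 FPKM. The shares of the 3 in Se-treated callus therefore depend on which unigenes carry a name. Of the FPKM lost over the 33 lower ones, 45.1% was lost by these 3. Their ratios were not the most extreme, as 12 of the 33 had a lower ratio than CL4877.Contig1, 17 a lower one than Unigene6359 and 19 a lower one than Unigene9986. The named receptor-like kinase that was nearest to the threshold, Unigene30897 (probable inactive receptor kinase), had 33 and 8 fragments and a log2 ratio of -2.04.

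**Figure D2:**
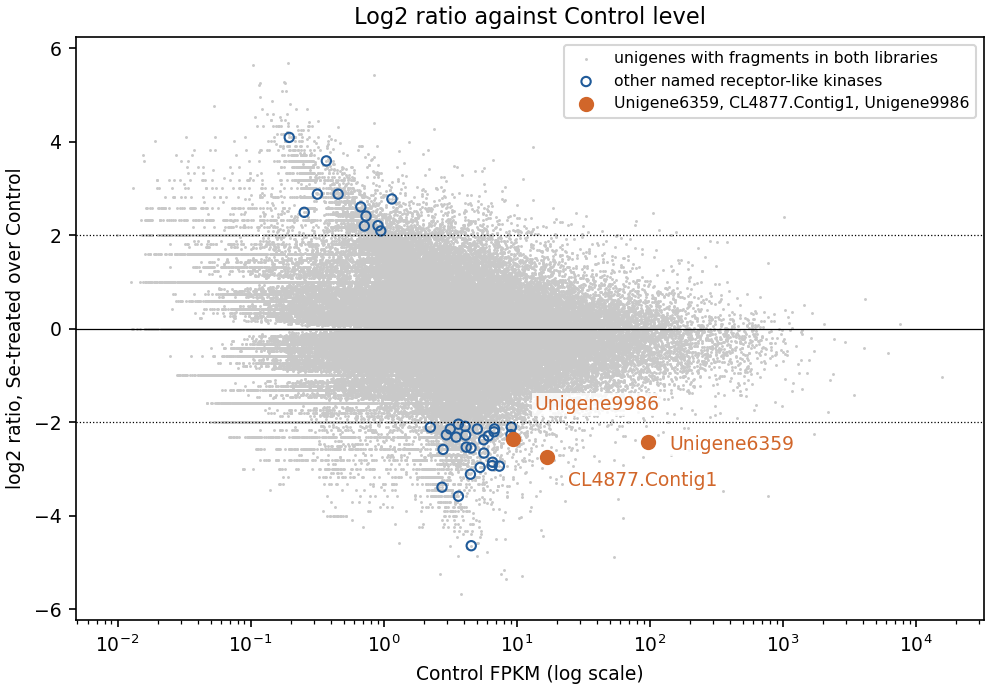
Log2 ratio of Se-treated over Control against the Control FPKM (log scale) for each unigene with fragments in both libraries (grey), the other named receptor-like kinases (blue rings) and the 3 described here (orange); dotted lines mark a log2 ratio of -2 and 2. Unigene6359 (97.2 FPKM) and CL4877.Contig1 (16.9 FPKM) lie to the right of the other lower receptor-like kinases, of which Unigene9986 (9.46 FPKM) has the highest Control level, and the higher ones lie at a Control level of at most 1.15 FPKM.

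The named cysteine-rich receptor-like kinases, 9 unigenes with Unigene9986 among them, were all called lower, against 31.8% of all named unigenes, and each of them carries a name only because it passed the thresholds. Their median log2 ratio was -2.86, or -2.41 where 0 was set to a floor of 3 fragments. Unigene9986 had the highest level of the 9 in both libraries, and their sum fell from 50.8 to 7.23 FPKM. The next levels in the Control were those of Unigene29898 (6.59 FPKM, 29 and 4 fragments, log2 ratio -2.86) and Unigene31846 (6.55 FPKM, 61 and 8 fragments, -2.93). Unigene28021 had 59 and 12 fragments (-2.30), and Unigene31422 had 57 and 9 (-2.66). In Unigene31775 and Unigene35021 the Se-treated library held 0 fragments against 16 and 13. With 0 set to that floor, taken per library, their levels were 5.32-fold and 4.33-fold lower. These 2 values leave out the counting error of the Control fragments. The exact intervals of the ratios include it, and their lower ends were 3.85-fold for Unigene31775 and 3.04-fold for Unigene35021. The calls of the 9 depended on the setting. With 1 FPKM added to both libraries only Unigene31775, Unigene31846 and Unigene35021 were still called lower. With an assumed spread between cultures (a coefficient of variation of 0.2) only Unigene9986 was. An exact binomial test did not call Unigene35021.

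The other 2 cysteine-rich unigenes lie in clusters, and their summed clusters differed less than the named contig. CL3540.Contig1 had 98 and 23 fragments (-2.09), while CL3540.Contig2 had 10 and 14 and CL3540.Contig3 16 and 25, so that the cluster came to 124 and 62. CL442.Contig9 had 26 and 3 fragments (-3.11), and its whole cluster of 9 contigs had a log2 ratio of -0.55. Contigs of a cluster can share reads, which makes the count of a single contig uncertain. Unigene6359 and Unigene9986 lie outside the clusters and CL4877.Contig1 is alone in its own, so summing a cluster left their ratios as they were.

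**Figure D3:**
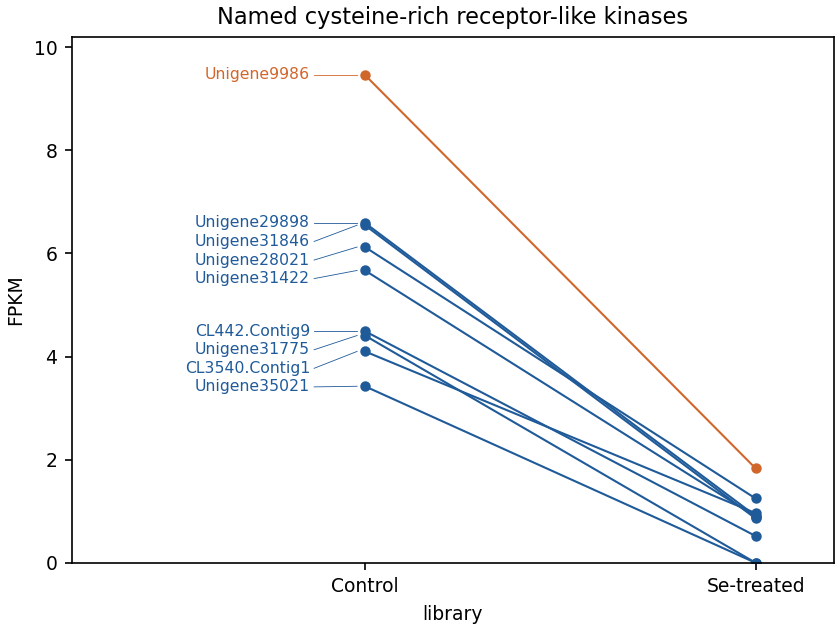
FPKM of the 9 named cysteine-rich receptor-like kinases in the Control and the Se-treated library, with 1 line per unigene and Unigene9986 in orange. Each line falls, from between 3.42 and 9.46 FPKM in the Control to at most 1.83 FPKM in the Se-treated library, and 2 unigenes end at 0 fragments.

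Unigene6359 and CL4877.Contig1 belong to the 15 named receptor-like kinases whose names give no outer domain, of which 11 were lower and 4 higher. This count and those of the other groups stand against 31.8% lower among all named unigenes. After these 2, the highest Control level in that group was that of Unigene31453, with 146 and 19 fragments, 7.41 and 0.97 FPKM and a log2 ratio of -2.94 (-3.71 to -2.24). Of 12 with leucine-rich repeats 9 were lower and 3 higher. Unigene18881 had 9.12 and 2.12 FPKM (-2.10), close to the levels of Unigene9986, and Unigene30023 had 6.76 and 1.46 FPKM (-2.21). Unigene22061 went the other way, with 28 and 191 fragments (2.77). It was matched to EXS, a receptor that sets cell fate in the anthers of Arabidopsis. Both wall-associated kinases were lower, with 47 and 8 fragments in Unigene33215 (-2.55) and 53 and 11 in CL2336.Contig2 (-2.27). Of 5 lectin receptor-like kinases 2 were lower, such as CL2471.Contig16 (-2.14, cluster -0.90), and 3 higher, such as Unigene39107 (2.41) and CL1086.Contig4 (2.88, cluster 0.08). The single LysM kinase, CL1986.Contig4, was higher with 32 and 147 fragments (2.20), but its cluster of 7 contigs had 0.50.

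**Figure D4:**
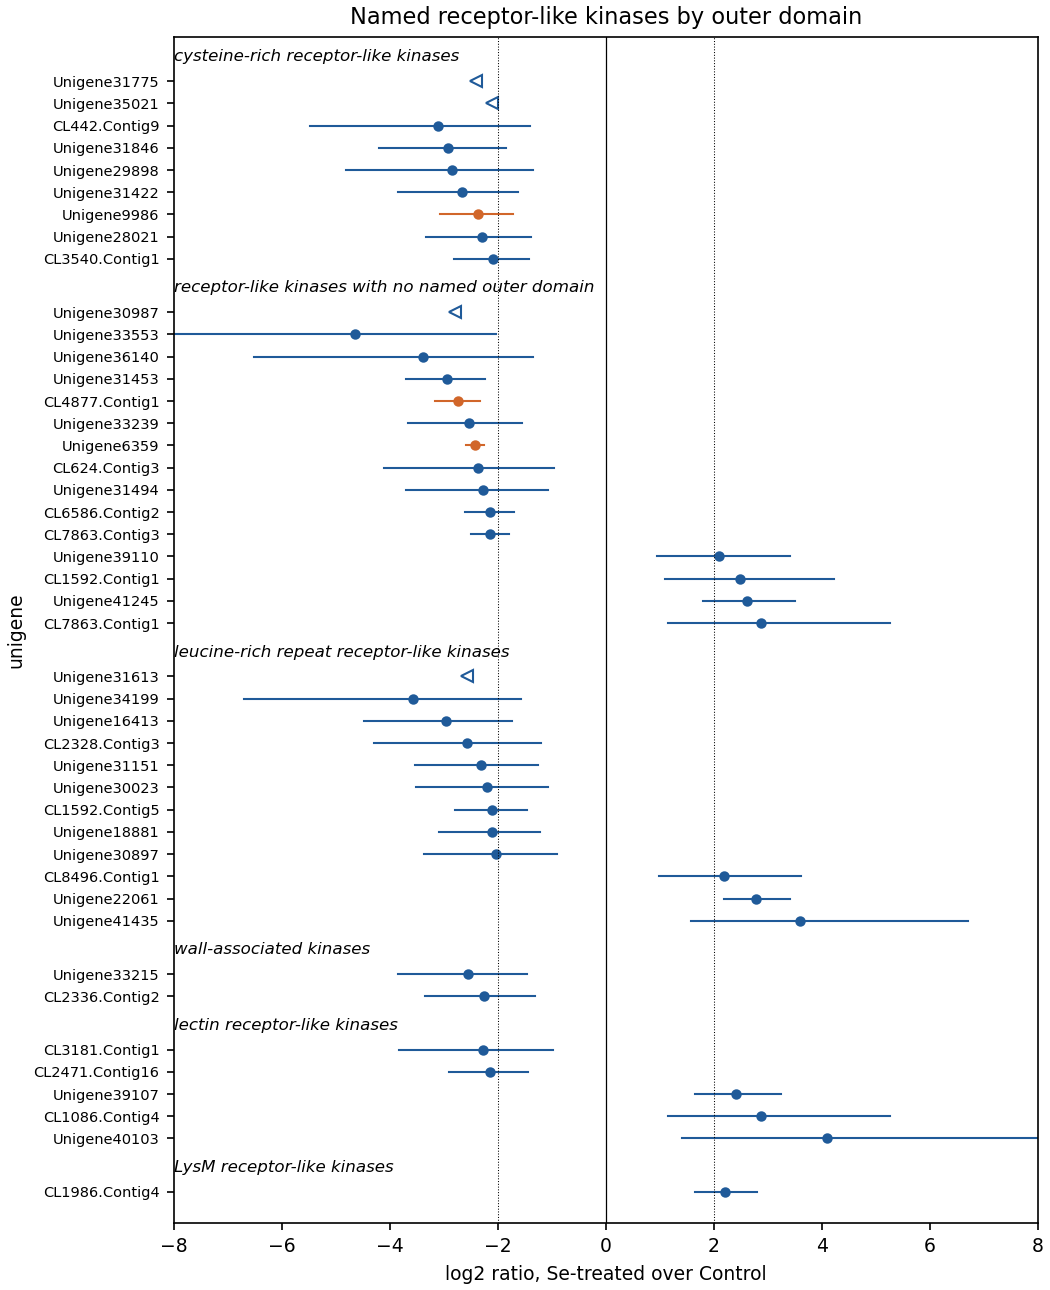
Log2 ratio of Se-treated over Control of the 44 named receptor-like kinases by outer domain, with exact 95% binomial intervals that cover counting error only and end at the edge of the plot where they run past it; open triangles are unigenes with 0 Se-treated fragments, drawn at the floor of 3 fragments. The intervals of Unigene6359 (-2.60 to -2.25), CL4877.Contig1 and Unigene9986 (orange) lie wholly below -1, and the 9 cysteine-rich kinases lie on the lower side. Of the 33 lower unigenes, these 3 included, 30 have an interval wholly below -1.

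In 2 clusters the named contigs went opposite ways. CL7863.Contig3 had 372 and 84 fragments (-2.14), while CL7863.Contig1 had 3 and 22 (2.88), and their cluster of 3 contigs, with 416 and 125 fragments, had -1.73. CL1592.Contig5, matched to EFR, which senses a bacterial elongation factor in Arabidopsis, had 108 and 25 fragments (-2.11), while CL1592.Contig1 had 5 and 28 (2.49), and their cluster of 8 contigs had -0.39. Of the 33 lower receptor-like kinases 9 lie in clusters of 2 or more contigs, and the summed cluster of 7 of these had a log2 ratio between -1 and 0.

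The number of a unigene outside the clusters moved with its direction in the whole table. Of the 6970 unigenes in a range that starts at 30000, 88.9% were lower in the Se-treated library and 5.75% were called lower, against 53.8% and 0.654% of the 29954 numbered under 30000. In the range of the highest numbers 11.9% of 7927 were lower. Unigene6359 and Unigene9986 are numbered under 30000 and CL4877.Contig1 is a cluster contig, so none of the 3 lies in these ranges. Of the 33 lower receptor-like kinases 16 lie in the range from 30000, 4 of the 9 cysteine-rich ones among them, and 5 of the 11 higher ones lie in the highest range. Of the 23 named receptor-like kinases numbered under 30000 or in clusters, 17 were lower and 6 higher, with a median log2 ratio of -2.15. What the number range has to do with the direction was not tested.

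Named kinases that act inside the cell after such receptors are given beside the share of 31.8% lower among all named unigenes. Of 8 named receptor-like cytoplasmic kinases, which receptors at the membrane phosphorylate, 2 were lower and 6 higher, with a median log2 ratio of 2.68, or 2.27 with the floor in place of 0, and 3 of the 6 higher ones lie in the highest number range. Unigene716 had 399 and 78 fragments (13.7 and 2.69 FPKM, -2.35), levels near those of CL4877.Contig1. Unigene24496, matched to PBS1, which is guarded by an immune receptor in Arabidopsis, had 22 and 95 fragments (2.11), and Unigene18139 had 29 and 116 (2.00). Of 4 named MAP kinase cascade members 2 were lower and 2 higher. Unigene2397, a MAP kinase, had 31 and 162 fragments (2.39), and Unigene33238, a MAP kinase kinase kinase numbered in the range from 30000, had 37 and 7 (-2.40). CL3257.Contig1, a MAP kinase, had 31 and 6 (-2.37, cluster -1.35). These lists also hold only unigenes that had passed the thresholds in these libraries.

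The named unigenes most like each receptor-like kinase in level were sought by the distance of log2 FPKM over the 2 libraries. With only 2 libraries this likeness says that the levels were close, and nothing more. Nearest to Unigene6359 were a lipoxygenase (Unigene25277, distance 0.29, 93.6 and 22.2 FPKM), an early light inducible protein (CL1671.Contig2, 0.46, cluster log2 ratio -1.90) and a SWEET12-like sugar transporter (Unigene29960, 0.51). Some lipoxygenases act at the start of jasmonate synthesis, and the name does not say whether Unigene25277 is of that type. The nearest to CL4877.Contig1 was an albumin-2 protein (CL10154.Contig1, 0.06), at 17.1 and 2.43 FPKM. It was followed by phenylalanine ammonia-lyase (Unigene31527, 0.18, in the number range from 30000), the first enzyme of phenylpropanoid synthesis, and an inositol trisphosphate phosphatase (Unigene27502, 0.31). Nearest to Unigene9986 was another receptor, the wall-associated CL2336.Contig2 (0.07), at 9.08 and 1.89 FPKM, although its cluster had a log2 ratio of -0.45. Homoglutathione synthetase (Unigene31857, 0.12, in the number range from 30000), which makes the form of glutathione found in many legumes, and a polygalacturonase inhibiting protein (CL3905.Contig2, 0.16, cluster -1.37) came next.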

How the data were processed

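Reads of low quality were dropped by the authors, who built unigenes from the others with Trinity, TGICL and Phrap, searched them by Blast and used SOAP for mapping. The deposited table holds whole fragment counts per unigene, not normalized, unigene lengths, other columns of FPKM, and the authors' P-value and FDR, which were not used. From 1 upwards the stored FPKM lacks its decimal mark (all 59159 such Control values and 58553 Se-treated values equal 10000 times the computed ones within rounding), so FPKM was computed from the counts. With 1 library per condition edgeR could not be used as a test. Calls follow the thresholds of the study, with the two-sided Audic-Claverie test, and an FPKM of 0 was replaced by 0.001 in ratios. Poisson intervals of counts and Clopper-Pearson intervals of ratios are exact at 95%. Fragments are not independent molecules, so the intervals, and a floor of 3 fragments, hold for counting error alone. The test was tried on simulated counts. Members, lists and the rule for named unigenes (the 3, the cysteine-rich list, up to 3 of each other list by mean FPKM, and the 3 nearest named ones) were chosen with earlier results of these data known. Others (Unigene30897, the extensin-like protein and the flavonoid 3'-hydroxylase, the further contigs of named clusters and CL1592.Contig1, CL1592.Contig5, CL7863.Contig1, CL7863.Contig3) were picked once their values had been seen. The alternatives comprised a pseudocount, recentring, TMM scaling, a filter on low counts, an exact binomial test, an assumed spread between cultures and summed clusters. Scripts ran in Python 3.11.15 (scipy 1.17.1, numpy 2.4.6, pandas 2.3.3, and matplotlib 3.10.9 for plots).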

Additional observations from a re-analysis of the deposited data

How the results depend on the processing

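The log2 ratios of Unigene6359, CL4877.Contig1 and Unigene9986 kept their direction and stayed within their counting intervals under 0.1 or 1 FPKM added to both libraries, recentring by the median (a shift of -0.03), TMM scaling (-0.08) and summing of clusters. Summing clusters could not change these 3, as none shares a cluster with another contig. Of 42 alternatives over all results 35 left the result the same within set limits, and 0 reversed the direction. The limits for counts were wide, as the change from 3 to 2 of the 3 called lower with 1 FPKM added is among the 35. Alternatives that could not change a result are also among them. A count of calls has no direction, and adding FPKM to both libraries cannot change the sign of a ratio. The recentring and TMM shifts were far smaller than the ratios. The absence of a reversal was thus largely fixed in advance and lends no support. The exact binomial test kept 31 of the 33 lower receptor-like kinases. With 1 FPKM added, 2 of the 3 were called lower, 9 of the 33 lower receptor-like kinases were still called, their median over all 44 was -1.60, and the count of unigenes called lower was 249 in place of 912. An assumed spread between cultures (a coefficient of variation of 0.2), which these data cannot measure, kept 3 of the 3 and 6 of the 33, and 178 unigenes at a log2 ratio of -2 and 190 at -1 (of 3838). With 0.4 the counts were 0 for the 3, 0 of all unigenes at -2 and 0 at -1, because the assumed spread alone keeps such ratios from passing. The median of the receptor-like kinases without those numbered 30000 and above, an alternative chosen after seeing the data, was -2.15. No paired analysis was possible because there is 1 library per condition, and for that reason no library could be left out. A level at the floor of 3 fragments equals 0.228 FPKM in the Control for a unigene of median length.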
